A study of Mus musculus with 8 samples.

Results

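The receptors for the constant part of IgG and IgE were followed in mouse bone marrow-derived macrophages (BMDM), cells grown from bone marrow, of the C57BL/6 strain. They were taken as the loci of the merged transcript annotation (genome build mm9) that carry a reference coding transcript at the positions of Fcgr1, Fcgr2b, Fcgr3, Fcgr4, Fcer1g and Fcer2a. This gave 6 loci of 19989 with a reference coding transcript and of 31020 in all. A group of 4 untreated libraries was compared with 4 libraries of cells given interleukin-4 (IL-4), a T helper cell cytokine known to drive alternative activation of macrophages. The dose and duration of IL-4, the age and sex of the mice, and whether each library came from its own mouse are missing from the labels. The p-values therefore refer to the spread among these libraries. RNA from which ribosomal RNA had been removed was sequenced, with total counts of 23071022 to 27783417 per library.

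Macrophages use IgG receptors to bind and engulf antibody-coated particles and to respond to immune complexes. Fcgr1, Fcgr3 and Fcgr4 are activating receptors that bind IgG with their own chain and signal through the ITAM motif of a shared partner, the Fc receptor gamma chain encoded by Fcer1g, which they also need for stable surface expression. Fcgr2b, the inhibitory IgG receptor, carries an ITIM motif in its own tail and opposes the others, so the balance of the activating receptors to Fcgr2b is a known determinant of the response to immune complexes. Fcer2a encodes CD23, the low-affinity IgE receptor, a lectin-type protein unrelated in structure to the IgG receptors and known as an IL-4-induced gene of B cells.

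The deposited tables name loci by identifiers that they do not pair with gene symbols, so the names rest on position. The strand was that of the RefSeq gene of the same name at all 6 loci. The length of genome spanned by the RefSeq gene was met exactly by an isoform at 4 of them, Fcgr1, Fcgr4, Fcgr2b and Fcer1g, and not at Fcgr3 or Fcer2a. For the same reason the macrophage label could not be checked against marker genes. The replicate 4 libraries stood apart from the others in counts on loci of chromosome Y, with 5525 and 5808 against 0 to 7 in the other 6 libraries. Values without both of them are given where they change a call. The exact tests are excepted, since none can pass with 3 against 3 libraries.

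IL-4 acts through STAT6, a transcription factor whose best known site is TTC and GAA with 4 unspecified bases between them. The pattern reads the same on the 2 strands, and it was searched in RefSeq promoter windows of the members (build GRCm38.p6, 250 bases before to 50 after the start, 9 windows for the 6 genes). These are reference sequences on another build than the expression tables. The 250 bases before the start are shown for Fcgr1 and Fcgr2b, the IgG receptors with the largest fall and the largest rise, and for the 1 window with a match, that of Fcer2a, with matched bases in capitals.
Fcgr1, chr3:96293970-96294219, minus strand: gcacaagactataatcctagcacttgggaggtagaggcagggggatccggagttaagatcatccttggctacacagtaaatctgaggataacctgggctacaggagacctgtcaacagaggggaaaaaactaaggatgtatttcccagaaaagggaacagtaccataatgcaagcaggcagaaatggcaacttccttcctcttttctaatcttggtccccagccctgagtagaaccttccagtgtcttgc
Fcgr2b, chr1:170976072-170976321, minus strand: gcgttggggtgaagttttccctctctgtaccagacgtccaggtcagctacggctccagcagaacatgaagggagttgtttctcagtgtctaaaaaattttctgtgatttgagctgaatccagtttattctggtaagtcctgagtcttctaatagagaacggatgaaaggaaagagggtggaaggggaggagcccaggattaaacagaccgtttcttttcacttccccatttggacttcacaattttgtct
Fcer2a, second window, chr8:3690862-3691111, minus strand: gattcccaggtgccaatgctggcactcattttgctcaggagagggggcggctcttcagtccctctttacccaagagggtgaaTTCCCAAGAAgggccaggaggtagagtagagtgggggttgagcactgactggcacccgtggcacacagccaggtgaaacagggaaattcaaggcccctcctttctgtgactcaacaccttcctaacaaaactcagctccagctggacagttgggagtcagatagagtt
The second of 3 Fcer2a windows held the pattern, as TTCCCAAGAA beginning 168 bases before the start. It did not occur in the windows of Fcgr1, Fcgr2b, Fcgr3, Fcgr4 and Fcer1g. Of 32851 promoter windows of the same length, 6.953% held it, and a match is a description of the letters only. Only the spacing of 4 bases is covered, and other spacings of TTC and GAA are not reported here.

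The receptors moved in different directions. Of the 5 loci with enough counts to test, Fcgr1 and Fcgr4 fell and Fcgr2b rose. The locus that holds Fcer1g also rose in counts, but it also holds other transcripts, and the Fcer1g isoform itself fell. Fcgr3 did not pass the test, and Fcer2a was too low to be tested. In counts this made 2 rises and 2 falls among 5 (edgeR quasi-likelihood test, Benjamini-Hochberg adjusted p under 0.05), where 25.6% of 13761 tested loci rose and 26.2% fell. The groups of libraries did not overlap in CPM (counts scaled to the total of the library) at 3 of the 5, Fcgr1, Fcgr4 and Fcgr2b, against 50.2% of all tested loci. The median log2 fold change of the 5 was -0.07, beside -0.02 over all tested loci. It includes the rise in counts of the locus that holds Fcer1g, not the fall of the Fcer1g isoform (log2 fold change -0.64). With Fcgr1 and Fcgr4 lower and Fcgr2b higher, the members showed no common direction. As in any bulk measurement, a smaller share of expressing cells and less RNA per cell cannot be told apart.

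Fcgr1, the high-affinity IgG receptor that binds single IgG molecules, was the member that changed most. The locus lies on the minus strand of chromosome 3 (96085957 to 96098013) and has 6 merged exons. Its level was 280.6, 286.4, 266 and 362.1 CPM in untreated libraries 1 to 4, and 6.037, 5.039, 5.382 and 8.503 CPM in IL-4 libraries 1 to 4. The groups were far apart, and replicate 4 was the highest library in each. The log2 fold change was -5.47 (SE 0.18, edgeR, adjusted p = 3.951e-09), a 44.4-fold lower level with IL-4. This was the 11th largest fall among the 13761 tested loci. In FPKM, fragments per transcript kilobase relative to all mapped fragments, a unit that allows genes of different length to be compared, Fcgr1 went from 71.0 ± 10.7 to 1.56 ± 0.406 (SD, n = 4 each). Among 19989 coding loci it dropped from rank 565 to 787 in the untreated libraries to rank 8288 to 9104. IL-4 reads remained, with 129 to 230 counts per library, so the transcript was low rather than undetected.

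Both Fcgr1 isoforms above 1 FPKM fell. The isoform TCONS_00052399 (2589 nt, 6 exons) held 96.9% of the untreated FPKM and went from 68.8 ± 10.3 to 1.53 ± 0.390 FPKM (SD, n = 4 each). The isoform TCONS_00052397, which has 996 nt more, went from 2.19 ± 0.746 to 0.0291 ± 0.0350 FPKM. Their log2 fold changes, on log2(FPKM + 0.1), were -5.42 (SE 0.17, limma, adjusted p = 1.754e-07) and -4.12 (SE 0.37, limma, adjusted p = 4.536e-05). That scale understates the change of the lower one, which was -1.60 at a pseudocount of 1 and -6.33 at 0.01, and whether the 2 differ was not tested.

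Fcgr4, the activating receptor of mouse macrophages and neutrophils that binds some IgG subclasses with intermediate affinity, fell more moderately. It is a 5-exon locus on the plus strand of chromosome 1 (172949057 to 172959892) with a single isoform. The untreated libraries had 98.44, 74.24, 69.52 and 106.7 CPM and the IL-4 libraries 37.11, 26.89, 25.99 and 54.45 CPM. The groups did not overlap, but each spread widely, and replicates 1 and 4 were above replicates 2 and 3 in both. The log2 fold change was -1.17 (SE 0.24, edgeR, adjusted p = 0.001748), or 2.24-fold lower. Libraries that share a replicate number were taken as pairs. Within these pairs the IL-4 level in FPKM was 0.379 to 0.548 of the untreated one, highest for replicate 4. Tested against a change of 1.5-fold, the fall still passed (edgeR's glmTreat, adjusted p = 0.02629).

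Fcgr3, the low-affinity activating receptor for immune complexes, was the most abundant member in both groups and did not pass the test. It lies on the minus strand of chromosome 1 (172981274 to 173011157). Its levels were 1039, 924.3, 837.5 and 1005 CPM in the untreated libraries and 862.2, 722.5, 728.2 and 1046 CPM with IL-4. The groups overlapped, since IL-4 replicate 4 was above every untreated library. The log2 fold change was -0.07 (SE 0.13, edgeR, adjusted p = 0.6605). On the summed FPKM of its isoforms, the 95% interval of the fold ran from 0.75 to 1.13 (limma), so changes larger than these bounds lie outside it. Replicates 1 to 3 were lower with IL-4 in FPKM, at 0.850 to 0.893 of the untreated library of the same number, and replicate 4 was higher, at 1.11. Without both replicate 4 libraries the log2 fold change was -0.18 and again did not pass (edgeR, adjusted p = 0.2042).

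The 2 main Fcgr3 isoforms differ by 3 nt and neither passed the test (limma, adjusted p = 0.377 and 0.4775), but a minor one rose. TCONS_00004399 (1353 nt, 5 exons) held 86.6% ± 0.243 of the FPKM of the locus in untreated cells and 85.6% ± 0.402 with IL-4 (SD, n = 4 each). These shares did not overlap (two-sided exact permutation test, p = 0.02857, the smallest that 4 against 4 can give, adjusted p = 0.0381 over 4 shares), but the difference was -1.004 percentage points, and p was 0.05714 with any one untreated library left out. TCONS_00004397, a 3-exon form with 104 nt outside the exons of the main isoform and 156 nt of that isoform missing, had 6.046, 5.218, 7.726 and 5.86 FPKM untreated and 13.99, 11.11, 9.231 and 14.45 with IL-4. All IL-4 libraries were above all untreated ones (log2 fold change 0.95, SE 0.17, limma, adjusted p = 0.002198). It made up 1.22% of the locus in untreated cells and 2.58% with IL-4, so it added little to the level of the gene.

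Fcgr2b, the inhibitory receptor, was the only IgG receptor locus to rise. It lies on the minus strand of chromosome 1 (172889766 to 172906678), on the other side of Fcgr4 from Fcgr3. The untreated libraries had 116.4, 101.5, 99.09 and 111.5 CPM, and the IL-4 libraries had 324.7, 299.5, 348.4 and 380.1 CPM. Both groups were tight and far apart. The log2 fold change was 1.76 (SE 0.10, edgeR, adjusted p = 1.089e-07), or 3.40-fold higher with IL-4. It rose in all 4 pairs, by 3.04-fold to 4.01-fold in FPKM, and moved from rank 1297 to 1505 to rank 339 to 430 among coding loci. The extracellular parts of Fcgr2b and Fcgr3 are known to be nearly identical in sequence. The sources used here do not give how reads that fit both were assigned, so each of the 2 levels is uncertain to that extent.

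Fcgr2b is known in a form with an extra exon in its cytoplasmic tail, typical of B cells, which keeps the receptor from being taken up, and a form without it, typical of macrophages. The main isoform, TCONS_00004388 (1406 nt, 7 exons), went from 32.3 ± 3.46 to 116.9 ± 14.0 FPKM (SD, n = 4 each, log2 fold change 1.85, SE 0.11, limma, adjusted p = 4.158e-06) and held 83.6% ± 1.99 of the locus untreated and 86.0% ± 1.37 with IL-4. TCONS_00004387 differs from it only by an additional exon of 141 nt (172893456 to 172893596). It rose from 1.97 ± 0.543 to 6.05 ± 1.10 FPKM (log2 fold change 1.59, SE 0.21, limma, adjusted p = 0.0004028). Isoforms with the whole 141-nt exon made up 6.027, 6.344, 4.3 and 3.742% of the Fcgr2b FPKM in untreated libraries and 4.773, 4.892, 3.426 and 4.757% with IL-4. These shares overlapped, so the groups did not separate in the use of the whole exon. The form without the exon prevailed in every library. TCONS_00004386, which holds 57 nt of that exon, is not in these shares. It made up 3.064, 1.611, 4.134 and 2.193% untreated and 8.745e-06, 1.654, 1.572 and 1.067% with IL-4, again with overlap. The share with any part of the exon was not compared.

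The other Fcgr2b isoforms above 1 FPKM were minor. TCONS_00004390 went from 1.56 ± 0.157 to 3.84 ± 0.373 FPKM and TCONS_00004384, a form of 16679 nt that retains introns, from 1.34 ± 0.136 to 3.32 ± 0.307 (SD, n = 4 each), and both rose (limma, log2 fold change 1.25 for each). TCONS_00004385, which begins at the upstream of the 2 annotated start sites, had 0.0817, 0.276, 0.957 and 0.0748 FPKM untreated and 2.494, 4.539, 4.535 and 5.775 with IL-4, and rose (log2 fold change 3.67, SE 0.57, limma, adjusted p = 0.001083). Its fitted value depends on the pseudocount, being 1.99 at a pseudocount of 1 and 4.27 at 0.01. TCONS_00004386 did not pass (limma, adjusted p = 0.8932): its groups overlapped and IL-4 replicate 1 was near 0 while the other IL-4 libraries had 1.667 to 2.191 FPKM. Summed by start site, the upstream one, at 172906678, went from 1.69 ± 0.322 to 7.65 ± 1.44 FPKM and the main one, at 172906202, from 36.9 ± 3.72 to 128.2 ± 14.8. The groups did not overlap at either start site, and the main one gave most of the transcript in each group. Of 29 isoforms of the 6 genes, with the other transcripts of the joined Fcer1g locus left out, 13 were tested, 6 rose and 4 fell (limma), where 19.8% of 17500 tested isoforms rose and 18.5% fell.

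**Figure D1:**
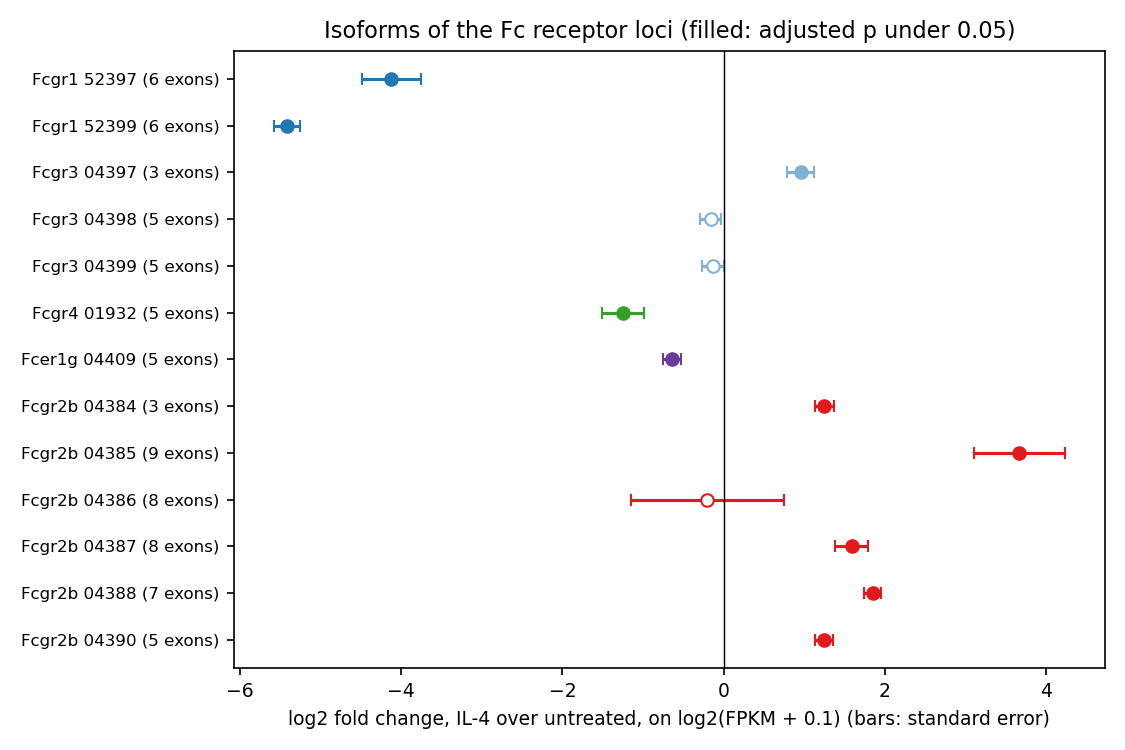
Log2 fold change of the tested isoforms of the Fc receptor genes, IL-4 over untreated, on log2(FPKM + 0.1), with bars of 1 standard error (limma, 4 libraries a group); filled points passed an adjusted p of 0.05. Both Fcgr1 isoforms lie far to the left, 5 of 6 Fcgr2b isoforms lie to the right, and Fcgr3 has 1 minor isoform to the right with its 2 main ones near 0.

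Fcer1g could be read only from its isoform. The locus in the merged annotation joins the 5-exon Fcer1g isoform TCONS_00004409 (658 nt, chromosome 1, minus strand, 173159703 to 173164480) with 3 other isoforms that lie partly or wholly beyond it, 1 of which contains all of its exons. In addition, all 658 nt of the Fcer1g isoform lie under an exon of a locus on the opposite strand (173155084 to 173166633). The sources used here do not say whether the authors' counting used strand.

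The Fcer1g isoform had 335.4, 395.3, 419 and 390.4 FPKM in the untreated libraries and 227.5, 244, 222.1 and 300 FPKM with IL-4. Every IL-4 library was below every untreated one, and each was below the untreated library of its number, at 0.530 to 0.769 of it. The log2 fold change was -0.64 (SE 0.11, limma, adjusted p = 0.001873), or 1.56-fold lower. Without both replicate 4 libraries it was -0.72 (limma, adjusted p = 0.00229). The gamma chain transcript nevertheless stayed among the most abundant, at rank 83 to 123 of 19989 coding loci untreated and 153 to 211 with IL-4.

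The deposited counts of the joined locus moved the other way. They gave 164.4, 136.2, 132.3 and 142.2 CPM untreated and 167, 151, 163.3 and 159 CPM with IL-4, groups that overlapped, and the fitted log2 fold change was 0.26 (SE 0.08, edgeR, adjusted p = 0.01994). The locus did not pass when untreated replicate 2 (adjusted p = 0.06588), untreated replicate 3 (0.06092) or both replicate 4 libraries (0.07755) were left out, while the summed FPKM of the locus fell (log2 fold change -0.44, limma, adjusted p = 0.001953). Converted to reads by a scale taken from 1230 single-isoform loci, the FPKM of the Fcer1g isoform stood for a mean of 9239 reads untreated and 6067 with IL-4, more than the 3542 and 4181 counts deposited for the whole joined locus. At the Fcgr1, Fcgr2b, Fcgr3 and Fcgr4 loci the mean ratio of deposited counts to reads converted in this way was 0.930 to 1.09. The counts of the joined locus thus fell short of the reads of the Fcer1g isoform and cannot be read as its level.

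The opposite-strand locus also fell in counts, by 2.31-fold (edgeR, adjusted p = 3.62e-07). Its main isoform had 4.25 ± 0.0889 FPKM untreated and 1.79 ± 0.183 with IL-4, far below the Fcer1g isoform per length in every library. Reads of the 2 strands cannot be told apart without strand, and the part of this locus in the Fcer1g fall was not tested.

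**Figure D2:**
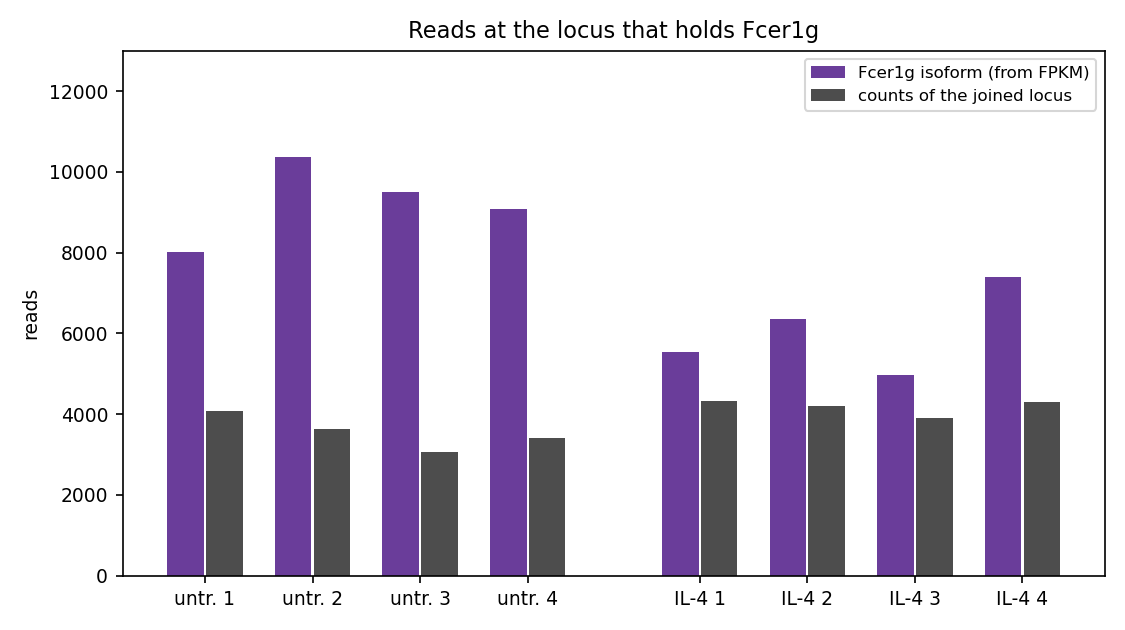
Reads in each library at the locus that holds Fcer1g: those that the FPKM of the Fcer1g isoform stands for, and the deposited counts of the whole locus. The Fcer1g bars are lower with IL-4 (means 9239 and 6067), the deposited counts are slightly higher (3542 and 4181), and the counts are below the Fcer1g bars in all 8 libraries.

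Fcer2a, the IgE receptor CD23, was near the limit of detection with and without IL-4. Its locus on the minus strand of chromosome 8 (3681737 to 3694174) had 9, 8, 3 and 8 counts in the untreated libraries and 5, 4, 1 and 3 with IL-4, 28 and 13 in all. It fell below the expression filter. In the fit without that filter the log2 fold change was -1.05 (SE 0.50, edgeR, adjusted p = 0.1227), and DESeq2 gave an adjusted p of 0.2115, so no rise or fall was detectable at this depth. In FPKM the locus had 0.0747 ± 0.0394 untreated and 0.0155 ± 0.0118 with IL-4 (SD, n = 4 each), where all isoforms of IL-4 replicate 3 are listed at 0.

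Compared per length, the order of the members was Fcgr3 (508 ± 55.4 FPKM), Fcer1g (385 ± 35.4), Fcgr1 (71.0 ± 10.7), Fcgr4 (48.2 ± 10.3), Fcgr2b (38.6 ± 3.49) and Fcer2a in untreated cells (SD, n = 4 each). The libraries of Fcgr4 and Fcgr2b overlapped, and those of the other neighbours in this order did not. With IL-4 the order was Fcgr3 (472 ± 86.9 FPKM), Fcer1g (248 ± 35.7), Fcgr2b (135.9 ± 15.9), Fcgr4 (20.9 ± 8.13), Fcgr1 (1.56 ± 0.406) and Fcer2a, with no overlap between neighbours. Fcgr1 thus passed from the third place to the fifth and Fcgr2b from the fifth to the third.

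**Figure D3:**
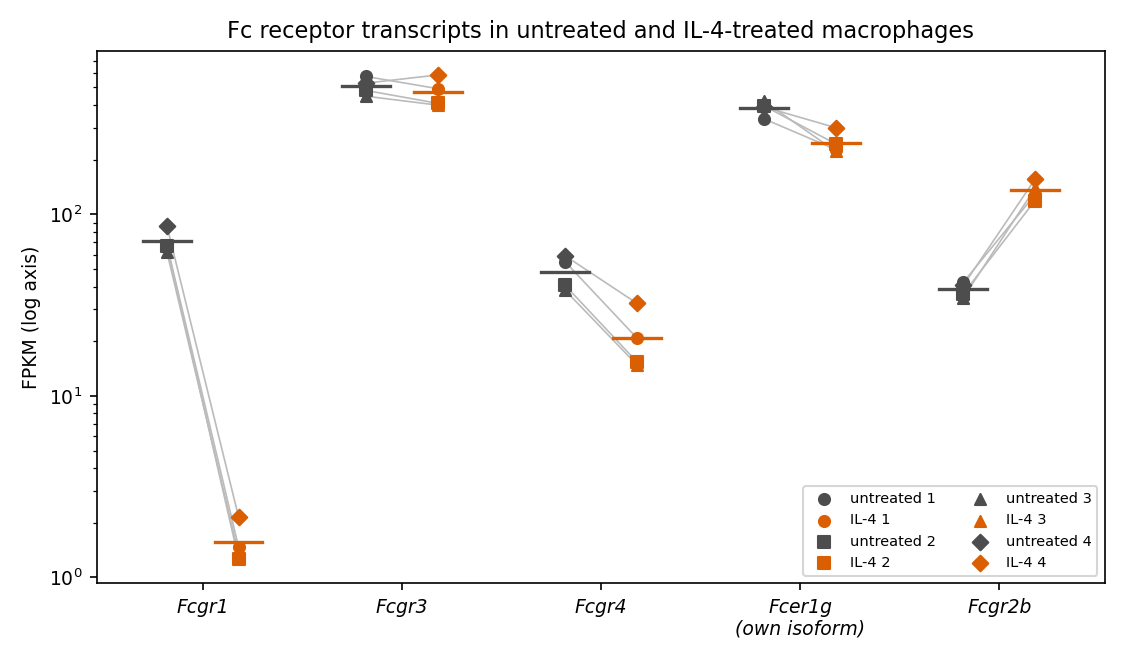
FPKM of 5 Fc receptor genes in each library on a log axis, with untreated libraries in grey, IL-4 libraries in orange, lines joining libraries of the same replicate number and horizontal bars at the group means; Fcer2a, listed at 0 in 1 library, is not drawn, and Fcer1g is its own isoform. Fcgr1 falls from a mean of 71.0 to 1.56 FPKM and Fcgr2b rises from 38.6 to 135.9, while the Fcgr3 groups overlap.

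Because the levels of the IgG receptors within a library share its depth, their ratios show directly whether receptors moved apart. Their summed FPKM was 665.7 ± 73.8 untreated and 630.2 ± 107.4 with IL-4 (SD, n = 4 each), and the groups overlapped. Within that sum, Fcgr3 made up 76.3% ± 1.66 and 74.8% ± 1.95. Fcgr1 went from 10.7% ± 1.20 to 0.245% ± 0.0223, Fcgr4 from 7.18% ± 0.840 to 3.23% ± 0.671, and Fcgr2b from 5.81% ± 0.128 to 21.8% ± 2.38. The groups overlapped in the Fcgr3 share and did not overlap in the other 3 shares.

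**Figure D4:**
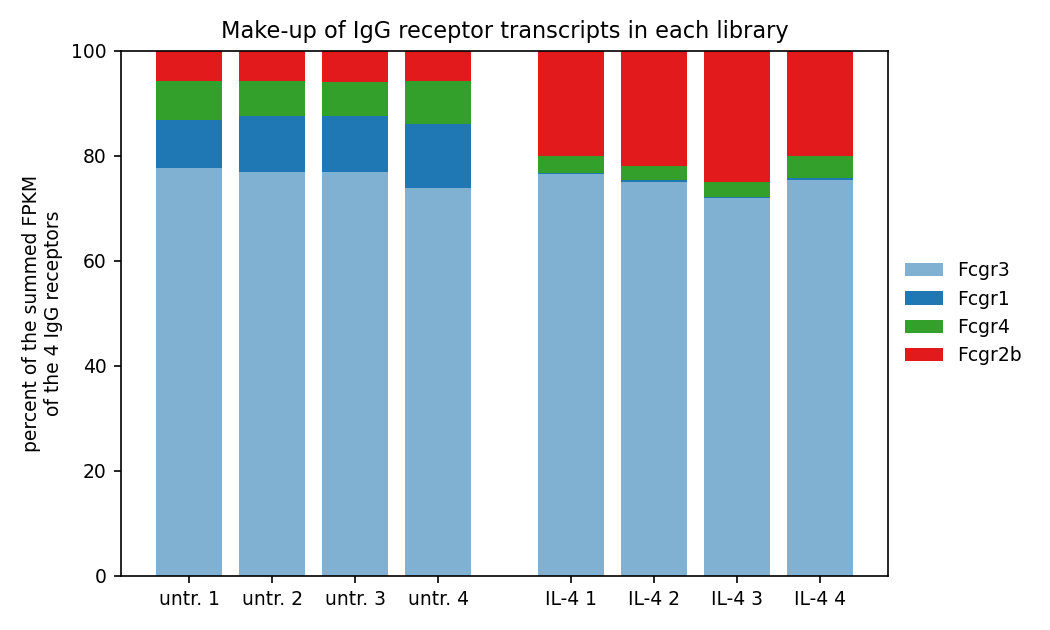
Percent of the summed FPKM of the 4 IgG receptors held by each in every library, stacked to 100. Fcgr2b holds 5.69 to 5.97% in the untreated libraries and 19.98 to 25.1% with IL-4, Fcgr1 shrinks to 0.229 to 0.277%, and Fcgr3 stays at 71.99 to 77.7%.

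The ratio of each activating receptor to Fcgr2b was lower with IL-4 in every library. Fcgr1 to Fcgr2b was 1.606, 1.84, 1.789 and 2.129 in FPKM in the untreated libraries and 0.0114, 0.0106, 0.00968 and 0.0138 with IL-4, or 162.4-fold lower on the mean of the log ratios. Fcgr4 to Fcgr2b went from 1.24 ± 0.169 to 0.151 ± 0.0437, or 8.39-fold lower. Fcgr3 to Fcgr2b went from 13.15 ± 0.316 to 3.47 ± 0.437 (SD, n = 4 each), or 3.81-fold lower, although Fcgr3 itself did not pass the test. Each of these had p = 0.02857, the smallest a two-sided exact permutation test of 4 against 4 can give (adjusted p = 0.04286 over 6 ratios). For Fcgr1 and Fcgr4 it was fixed by their falls and the rise of Fcgr2b, all without overlap, and adds nothing to those calls. For Fcgr3 it was fixed as well, by the rise of Fcgr2b from at most 42.29 to at least 119.2 FPKM. Fcgr3 lay within 399.8 to 586.1 FPKM in all 8 libraries, so its ratios could not overlap, and this p restates the rise of Fcgr2b. Summed over the 3 activating receptors, the ratio to Fcgr2b was 16.49, 16.11, 15.76 and 16.57 untreated and 4.004, 3.572, 2.984 and 3.972 with IL-4. The untreated libraries agreed closely with each other, and no IL-4 library came near them.

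Of the ratios of activating receptors to their signalling partner Fcer1g, that of Fcgr1 passed the test and those of Fcgr3 and Fcgr4 did not. Fcgr1 to Fcer1g fell from 0.186 ± 0.0327 to 0.00623 ± 0.000835 in FPKM (SD, n = 4 each, 29.7-fold lower, exact permutation p = 0.02857, adjusted p = 0.04286). This p, again the smallest possible, was fixed by the fall of Fcgr1 from at least 62.21 to at most 2.155 FPKM. The Fcer1g isoform stayed within 222.1 to 419 FPKM, so the test adds nothing to the call of Fcgr1. Fcgr3 to Fcer1g was 1.714, 1.218, 1.068 and 1.353 untreated and 2.166, 1.676, 1.8 and 1.954 with IL-4, which overlap through untreated replicate 1 (exact permutation p = 0.05714, adjusted p = 0.06857). Without that library the groups do not overlap, which fixes p at 0.02857, the smallest an exact permutation test of 3 against 4 can give. This p was not adjusted and adds nothing to the result with all libraries. Fcgr4 to Fcer1g was 0.127 ± 0.0355 untreated and 0.0824 ± 0.0212 with IL-4, with overlap (exact permutation p = 0.1429). Within same-numbered libraries, however, the Fcgr3 ratio was higher with IL-4 in 4 of 4 pairs and the Fcgr4 ratio lower in 4 of 4 (exact test within pairs, p = 0.125, the smallest it can give). Computed from CPM per kilobase, where the joined locus stands for Fcer1g, the log2 ratio of Fcgr3 to Fcer1g turned from 0.52 to -0.35. The ratio of Fcer1g to the sum of the 3 activating chains was 0.624 ± 0.122 untreated and 0.508 ± 0.0575 with IL-4, and these groups overlapped too, with a lower ratio in 4 of 4 pairs.

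Fcgr2b, Fcgr4, Fcgr3 and Fcer1g lie close together on chromosome 1. The loci around all members, with Fcgr1 on chromosome 3 and Fcer2a on chromosome 8, were counted together. Within 200 kb of the positions used for the members, 69 other loci were counted and 40 tested. Of these 3 rose and 19 fell (edgeR), with a median log2 fold change of -0.36, against -0.02 over all tested loci. With 500 kb either side, 13 rose and 26 fell of 80 tested. With the replicate number as a block 5 rose within 200 kb, and 5 did without untreated replicate 1. Within 100 kb, 2 rose and 14 fell of 32 tested, with a median of -0.33. At 500 kb the median was -0.09, nearer to that of all loci, of which 25.6% rose and 26.2% fell.

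The largest changes among the neighbours were falls. The coding locus XLOC_001296 on chromosome 1 (173103395 to 173127166), between Fcgr3 and Fcer1g, went from 150.2 ± 7.57 to 3.34 ± 1.42 CPM (SD, n = 4 each; log2 fold change -5.38, SE 0.22, edgeR, adjusted p = 1.68e-08), close to the fall of Fcgr1 on another chromosome. XLOC_018309 (chromosome 3, 96103926 to 96106518) is an unannotated transcript with no strand given, 5913 nt from the edge of the Fcgr1 locus. It had 47, 36, 38 and 58 counts untreated and 4, 3, 5 and 7 with IL-4 (log2 fold change -3.19, SE 0.31, edgeR, adjusted p = 8.482e-06), lower in each IL-4 library as Fcgr1 was. The coding locus XLOC_017393 on chromosome 3 (95985150 to 95999103) went from 1.28 ± 0.458 to 0.104 ± 0.0774 CPM (log2 fold change -3.44, edgeR, adjusted p = 6.66e-05).

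**Figure D5:**
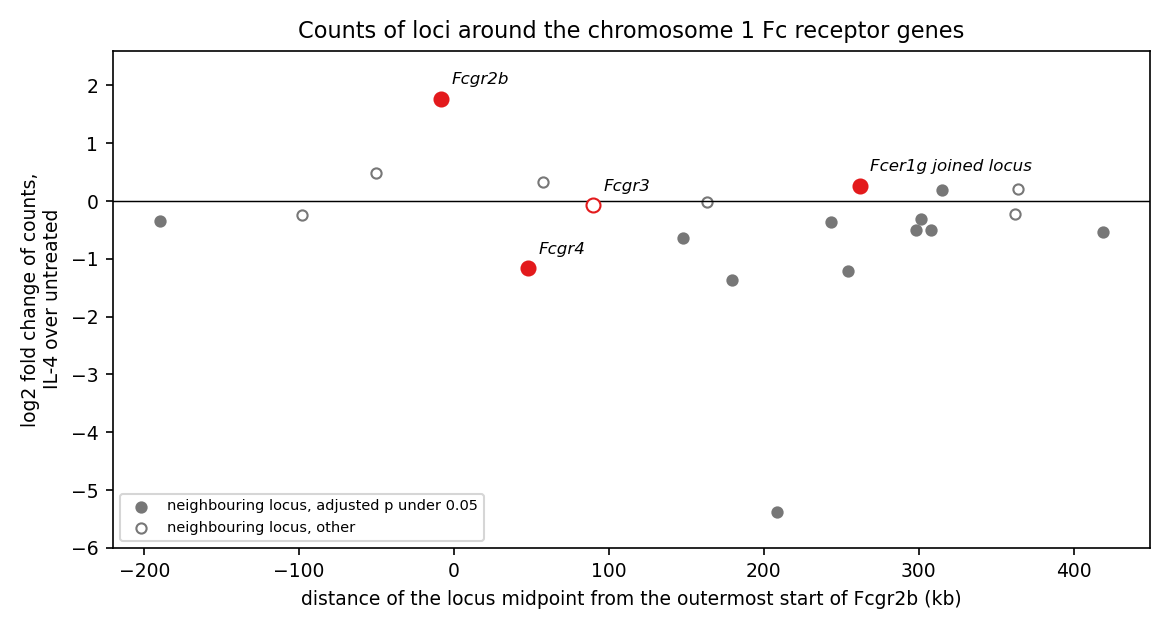
Log2 fold change of counts, IL-4 over untreated, of the tested loci around the chromosome 1 receptor genes, against the distance of each locus midpoint from the outermost Fcgr2b start in kb; filled points passed an adjusted p of 0.05 (edgeR), and red points are the receptor loci. Fcgr2b is the highest point at 1.76, Fcgr4 is at -1.17, Fcgr3 is near 0, and the lowest point, at -5.38, is a neighbour between Fcgr3 and Fcer1g.

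The coding loci most like each member across the 8 libraries were found by the root-mean-square difference of log2(CPM + 0.5), each locus centred on its own mean. The nearest to Fcgr1 were a locus on chromosome 19 (34657821 to 34663472), with 93.0 ± 33.1 CPM untreated and 1.56 ± 0.345 with IL-4 at a difference of 0.22, then XLOC_001296 at 0.29 and a locus on chromosome 6 (124791090 to 124814511) at 0.37. The locus nearest to Fcgr4, on chromosome 10 (116714413 to 116729968) at 0.11, was far more abundant, with 28480 ± 5508 CPM untreated and 12900 ± 3443 with IL-4. It was followed by loci on chromosome 9 (71474313 to 71619409, 0.13) and chromosome 11 (78001902 to 78005695, 0.13). The nearest to Fcgr2b were on chromosome 2 (103406467 to 103558671, 0.11), chromosome 9 (50863003 to 50885246, 0.12) and chromosome 4 (45811894 to 45817480, 0.12). Those nearest to Fcgr3 lay on chromosome X (50945666 to 50946940), chromosome 11 (102013861 to 102017721) and chromosome 3 (131227732 to 131306635), at differences of 0.06 to 0.07. The profiles include the difference between the groups, so loci with a like fold come out as near.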

How the data were processed

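RNA of 8 libraries was examined. The submitters' processing notes name HTSeq, Cufflinks 2.1.1, TopHat2 2.0.9, CASAVA 1.8.2 and the build mm9; the sources used here give neither settings nor strand mode. Deposited by the authors were whole-number counts per merged locus (31020 loci), FPKM per isoform (89208) and the merged annotation. Of 175547 identifiers, 0 matched the reference tables, so the planned lists of signalling genes and cell type markers were not run. Items withheld for evaluation are not reported here. The members and lists were chosen with earlier results of these data known. Counts were tested with edgeR 4.0.16 (TMM, default expression filter, quasi-likelihood test, two-sided) in R 4.3.3. For isoform FPKM the test was limma 3.58.1 with a trend, on log2(FPKM + 0.1), over isoforms at 1 FPKM or more in at least 4 libraries. Adjusted p are Benjamini-Hochberg over all features, with a threshold of 0.05. Ratios within a library and isoform shares of at least 10% were compared by exact permutation tests. Standard errors of edgeR values were derived from the F value. Named were all members, isoforms of the member genes of at least 1 FPKM in a group mean (other transcripts of the joined Fcer1g locus are not reported here), the 3 neighbours with the largest changes and the 3 loci most like each member; the joined Fcer1g locus was left out of the latter. DESeq2 1.42.0, other filters and scalings, and each library left out were alternatives. Deviations from group means correlated positively in all 4 same-numbered pairs (0.1484 to 0.3904, against -0.2671 to 0.2586 in other pairs). IL-4 replicate 2, however, correlated more with untreated replicate 3 (0.2586) than with untreated replicate 2 (0.1484). The numbers were taken to pair the libraries. The labels do not state this pairing, and the data do not settle it for replicates 2 and 3. On simulated data, edgeR recovered 66.15%, 96.97% and 100% of 1.5-fold, 2-fold and 4-fold changes set in 65, 66 and 64 loci. It made 10 false calls among 13700 loci. Limma recovered 58.21%, 86.36% and 96.97% of those set in 67, 66 and 66 isoforms, with 7 false calls among 16343. The changed isoforms were drawn only from those above a minimum level, so low isoforms are not covered. All simulated loci had 1 common spread, and far fewer changed than were called in the data. Depth behind a single FPKM value is unknown.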

Additional observations from a re-analysis of the deposited data

Results flagged for a closer look

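In 104 groups of 4 libraries compared for a library far from the other 3, 4 stood out, and chance alone gives about 1 in 20. For the main Fcgr1 isoform, IL-4 replicate 4 had 2.109 FPKM against 1.264 to 1.401 in the other IL-4 libraries, still far below every untreated library. For the raw counts of Fcgr2b, IL-4 replicate 4 had 10283 against 8322 to 8390, while its CPM, scaled to the total, did not stand out. For the counts of Fcer2a, untreated replicate 3 had 3 counts against 8 to 9. For the percent of Fcgr2b FPKM in isoforms with the whole 141-nt exon, IL-4 replicate 3 had 3.426 against 4.757 to 4.892.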

How the results depend on the processing

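Of 423 alternative values over 32 results, 399 were labelled unchanged, in direction and side of the threshold or in size. The exact tests within the 4 pairs and of 3 against 3 libraries are among the 399, although they cannot pass the threshold. Of 6 that changed sign, 5 belong to results that had not passed the test. The falls of Fcgr1, Fcgr4 and the Fcer1g isoform and the rise of Fcgr2b held under every alternative run. With the replicate number as a block, the log2 fold changes were -5.49 for Fcgr1, -1.20 for Fcgr4, 1.76 for Fcgr2b, 0.27 for the joined Fcer1g locus and -0.09 for Fcgr3, and no call of a member changed (edgeR). Among neighbours 5 rose with the block, and 13 rose within 500 kb. The counts of the joined Fcer1g locus depended on the processing: the log2 fold change of 0.26 did not pass against a change of 1.5-fold (glmTreat), was 0.24 and did not pass without both replicate 4 libraries, and reversed to -0.44 on the summed FPKM, an alternative chosen after seeing the data. With 1 library left out, it ran from 0.21 to 0.34. The log2 fold change of Fcgr3 counts ran from -0.20 to 0.0115, changing sign without IL-4 replicate 2 (0.0115) or 3 (0.0083) and passing in no case. That of TCONS_00004386 was 0.15 at a pseudocount of 1 and ran from -0.62 to 0.88 with 1 library left out, highest without IL-4 replicate 1, and did not pass. The log2 ratio of Fcgr3 to Fcer1g ran from 0.42 to 0.65 with 1 library left out, the percentage point change of the main Fcgr3 isoform from -1.17 to -0.84, and the number of risen neighbours from 2 to 5. From CPM per kilobase, where the joined locus stands for Fcer1g, the log2 ratio of Fcgr4 to Fcer1g was -1.48 and passed, and that of Fcgr3 to Fcer1g reversed to -0.35 and did not pass. The neighbours without single libraries were also computed after seeing the data. Within the 4 pairs an exact test cannot go below 0.125, and 3 against 3 libraries not below 0.1. Limits: the counter's use of strand is unknown, locus names rest on position, and Fcer2a has too few counts for a call. The causes of these changes were not tested.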

Other observations

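An unannotated locus on chromosome 1 (XLOC_001603, 172915119 to 172916559), between Fcgr2b and Fcgr4 and 8441 nt from the Fcgr2b locus, had 1, 5, 1 and 7 counts in the untreated libraries and 11, 11, 8 and 21 with IL-4. The counts did not overlap between groups, but the locus fell below the expression filter and was not tested; it was singled out after its values were seen.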
